A study of Drosophila melanogaster with 3 samples.

Results

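On 3 two-colour cDNA arrays of Drosophila Kc167 cells, 63 of 2377 named genes had no usable value on at least 1 array, and these 63 are described here as gap genes. They were chosen by the deposited values themselves: a gene is a gap gene when every spot printed for it is empty on at least 1 of the 3 arrays. The other 2314 named genes had a value on each array. Kc167 cells are a long-established line from embryos of the fruit fly, and they resemble haemocytes, the blood cells of the fly. Both channels of every array carried total RNA of untreated Kc167 cells grown as a dense culture, labelled with Cy3 or Cy5. The arrays differed in how much RNA went into a direct labelling: one took 20 µg, one 40 µg and one 80 µg, so no amount had a replicate. The value of a spot is the ratio of its 2 channels, read as a log2 ratio, in which 0 means equal signal and the sign has no stated direction between the dyes.

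On a cDNA array each spot holds DNA of one transcript, and labelled cDNA made from the cells' RNA binds to it. A spot can lack a usable ratio when little labelled cDNA binds to it, as for a gene that the cells do not transcribe, when little DNA was deposited there, or when the image of the spot is poor. The reason behind each empty cell is not given in the sources used here, and signal intensities were not analysed here, so the cause of the gaps was not tested. In the fly, several of the gap genes are known for other tissues than blood, among them a neuropeptide, an odorant-binding protein and a protein of meiotic chromosomes, while others serve functions that most cells need, such as translation initiation and mitochondrial fusion.

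Of the 16896 spots on each array, 15853 had a value at 20 µg, 16313 at 40 µg and 15623 at 80 µg. Among the 5666 spots with exactly 1 gene symbol, the empty share was 5.08%, 2.35% and 5.58%. Every probe with a single gene was printed as 2 neighbouring spots, here called a spot pair. The number of arrays limits the precision of everything that follows, and intervals given for shares are Wilson 95% intervals that cover counting error only and treat genes as independent.

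The gaps lay most often on the array with the most RNA and least often on the middle one. At 20 µg 21 gap genes had no value, at 40 µg 12 and at 80 µg 33, or 33.3% (22.9 to 45.6%), 19.0% (11.2 to 30.4%) and 52.4% (40.3 to 64.2%) of the 63. The order of the arrays was that of empty spots over the whole table, where 1043, 583 and 1273 spots were empty. With 1 array per amount, the amount of RNA and the individual array cannot be told apart. A gap on a single array was the rule: 60 genes lacked a value on 1 array, 3 on 2 arrays and 0 on all 3. Of the 60, 19 had their gap at 20 µg, 11 at 40 µg and 30 at 80 µg.

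The 3 genes with 2 gaps had a log2 ratio on 1 array each. CG5326 (Entrez Gene identifier 42655) was at 0.42 at 20 µg, with 0.35 and 0.48 on its 2 spots. CG7173 (40392) was at 0.26 at 40 µg, with 0.22 and 0.31 on its spots. The gene eIF3m (36565), a subunit of the eukaryotic translation initiation factor 3 that brings the small ribosomal subunit to messenger RNA, had 1 spot of 6 with a value over the 3 arrays, and it read -0.18 at 40 µg. Both CG7173 and eIF3m thus kept a value at 40 µg alone, the array with the fewest empty spots.

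All 63 gap genes were printed as exactly 2 spots, against a mean of 2.39 and up to 38 spots for the other named genes, of which 2026 had 2 spots and 288 had more. The number of spots bears on the rule directly, since a gene with many spots is less easily emptied. Just inside the rule, the gap genes had 0 of 2 spots left on an array, and just outside it a further 253 of the 2089 genes with 2 spots had 1 spot left on at least 1 array. Empty pairs also occurred in genes with more spots. Of 27 wholly empty spot pairs at 20 µg, 21 were gap genes and 6 belonged to genes with other pairs. At 40 µg the split was 12 and 1, and at 80 µg it was 33 and 20, the 20 pairs coming from 19 genes.

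Those genes with a further pair show how their pairs with at least 1 value behaved on the same array. Further pairs that were wholly empty were left out, and the genes set beside them had no wholly empty pair on that array. The shares therefore cannot show how often another pair of the same gene was wholly empty too. At 80 µg 9 of the 114 remaining spots of the 19 genes were empty, or 7.89%, against 5.10% in the other genes with more than 2 spots. At 20 µg 7 of 66 remaining spots were empty, or 10.6%, against 6.52%. At 40 µg the single such gene, CG43329, had 0 of 6 remaining spots empty. Among the genes whose ratio survived this way were the RNA-binding protein gene sm at 80 µg and the tyrosine phosphatase relative IA-2 at 20 µg, named after the values were seen.

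The emptiness of the gap genes carried over to arrays that the rule did not use for them. Among genes with 2 spots and a value at 20 µg, 16 of the 42 gap genes had 1 of the 2 spots empty there, or 38.1% (25 to 53.2%), against 119 of 2026 other genes, or 5.87% (4.93 to 6.98%). The shares at 40 µg were 8 of 51 gap genes, or 15.7% (8.17 to 28.0%), and 61 of 2026 others, or 3.01% (2.35 to 3.85%). At 80 µg they were 6 of 30, or 20.0% (9.51 to 37.3%), and 127 of 2026, or 6.27% (5.29 to 7.41%). On each array the gap genes thus lost a spot more often than the other genes with 2 spots, and the Wilson intervals did not overlap, which was no test of the difference over replicate arrays. Examples are alph, Atac1 and CG32720, each of which had 1 spot on both arrays with a value.

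**Figure D1:**
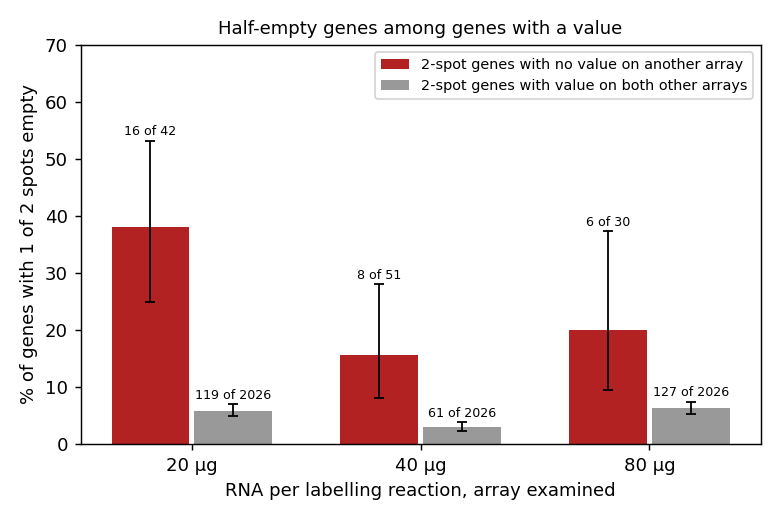
Share of genes with 1 of 2 spots empty on the array named on the x axis (20, 40 or 80 µg of RNA), in percent, for genes that lacked a value on another array (red) and for genes with a value on both other arrays (grey). Error bars are Wilson 95% intervals and the counts stand above the bars; the red bars stand at 38.1%, 15.7% and 20.0%, the grey bars at 5.87%, 3.01% and 6.27%.

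The deposited order of spots places the gap genes unevenly. The table can be read as 32 segments of 528 spots, each of 22 rows of 24 spots, a layout inferred from the values and not stated by the labels. In the last 7 rows of the segments, a boundary set after the values were seen, lay 36 of 63 gap genes, or 57.1% (44.9 to 68.6%), against 896 of 2314 other named genes, or 38.7%, and 754 of the 2026 with 2 spots, or 37.2%. Over the whole table the last 7 rows had 11.4% of spots empty at 20 µg, 7.01% at 40 µg and 16% at 80 µg, and the first 15 rows 3.72%, 1.79% and 3.58%. The last 7 rows had the larger empty share on all 3 arrays. Of all genes with 2 spots, 36 of 790 in the last 7 rows were gap genes, or 4.56% (3.31 to 6.24%), and 27 of 1299 in the first 15, or 2.08% (1.43 to 3.01%).

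**Figure D2:**
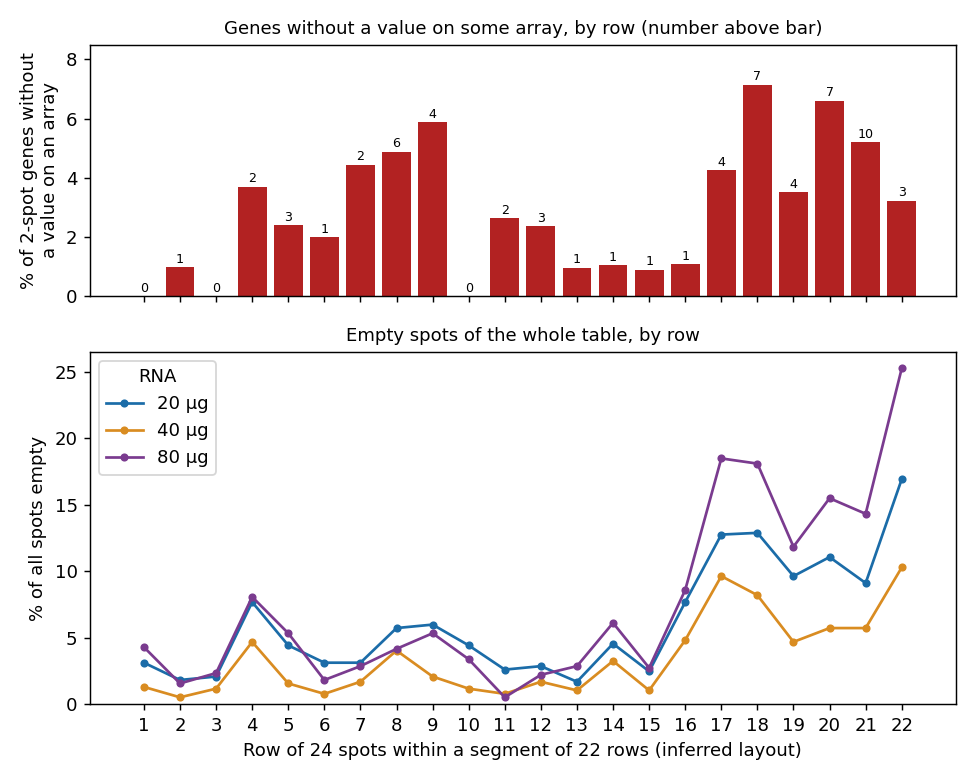
Upper panel: share of genes with 2 spots that lacked a value on at least 1 array, in percent, by row within a segment of 22 rows, with the number of such genes above each bar. Lower panel: share of all spots that were empty, in percent, by the same rows, for the arrays with 20, 40 and 80 µg of RNA; row 22 had 16.9%, 10.3% and 25.3% of spots empty, and row 21 held 10 of the 63 genes.

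The gaps of each array were also counted by rows, with few genes per array and no test of a difference between arrays. At 20 µg 9 of the 21 genes without a value were in the last 7 rows and 12 in the first 15. At 40 µg the counts were 8 and 4, and at 80 µg 19 and 14. The share with a lost spot on unused arrays was higher for gap genes in both sets of rows. At 20 µg 10 of 27 gap genes in the last 7 rows had an empty spot, or 37.0%, against 9.55% of 754 other genes there, and in the first 15 rows it was 6 of 15, or 40.0%, against 3.69% of 1272. At 40 µg the shares were 10.7% against 5.97% in the last 7 rows and 21.7% against 1.26% in the first 15. At 80 µg they were 29.4% against 13.1%, and 7.69% (1 of 13) against 2.20%. The intervals of gap genes and other genes overlapped at 40 µg in the last 7 rows and at 80 µg in both sets of rows.

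The kind of sequence record listed for a probe moved with the rows. Probes with an expressed sequence tag (EST), a single read of a cDNA clone, filled most of the first 15 rows, while nearly all probes with messenger RNA or RefSeq records alone, or with no record, lay in the last 7. A record was taken as an EST when its identifier began with AA, AI or AW and a digit. Any other record was counted as messenger RNA or RefSeq, so an EST with another prefix would fall there. Of the genes with 2 spots and an EST record, 36 of 1484 were gap genes, or 2.43% (1.76 to 3.34%), and of those with messenger RNA or RefSeq records alone 18 of 347, or 5.19% (3.31 to 8.05%). Genes whose probe had no record gave 9 of 258, or 3.49% (1.85 to 6.5%). Within the last 7 rows, the only place where the kinds can be set side by side, the EST probes had 9 of 195 gap genes, or 4.62% (2.45 to 8.54%), messenger RNA or RefSeq probes 5.23% (3.34 to 8.12%) and probes without a record 3.59% (1.90 to 6.67%), with overlapping intervals. The part of the rows and of the probe record in the gaps was not tested.

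**Figure D3:**
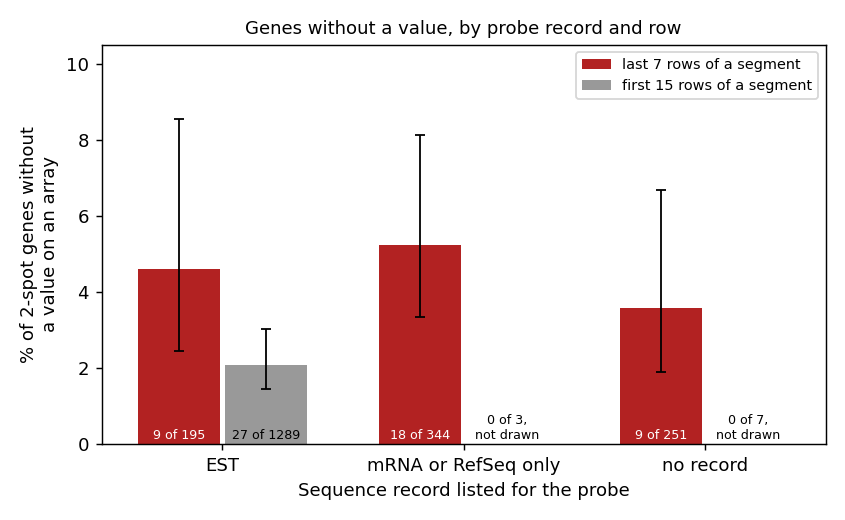
Share of genes with 2 spots that lacked a value on at least 1 array, in percent, by the sequence record listed for the probe, for the last 7 rows (red) and the first 15 rows (grey) of the segments, with Wilson 95% intervals and counts. The EST probes stand at 4.62% in the last 7 rows and 2.09% in the first 15; the other kinds had 3 and 7 genes in the first 15 rows, for which no bar is drawn.

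At 80 µg the gaps also had empty neighbours, counted without neighbours that were themselves gap genes without a value on that array. The spot pairs directly before and after the genes without a value at 80 µg had 28.1% of their 128 spots empty on that array, against 7.53% of all spots, and 12.5% and 14.1% empty at 20 and 40 µg. The share of all spots was not matched by row. Of these genes, 19 lay in the last 7 rows, with 16% of all spots empty at 80 µg, and 14 in the first 15, with 3.58%. At 20 µg the 84 neighbouring spots were empty in 2.38% of cases, against 6.17% of all spots, and at 40 µg the 40 neighbouring spots in 2.5%, against 3.45%. Some gap genes were direct neighbours of each other: Atac1 and eIF3m both lacked a value at 80 µg, CG34222 and CG3515 at 40 µg, and TotF and Ugt301D1 at 40 µg. The empty spots of these genes are not among the neighbouring spots counted above. The shares at 40 and 80 µg thus leave out neighbours that were wholly empty, and 2.5% at 40 µg does not show that gaps there lacked empty neighbours. The gap genes were spread over 24 of the 32 segments, with at most 7 in a segment. In the first 2112 spots lay 11 of the 63, or 17.5% (10.0 to 28.6%), against 12.8% of the other genes with 2 spots.

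Where the gap genes did have a value, most ratios stood near 0. At 20 µg the 42 ratios ran from -1.68 through a median of -0.0048 to 0.54, at 40 µg the 51 ratios from -1.17 through -0.053 to 0.40, and at 80 µg the 30 ratios from -1.18 through -0.072 to 0.33. The medians of the other named genes were 0.016, 0.010 and -0.0073. On each array the most extreme gap gene was on the negative side. So was the most extreme of the other named genes, at -1.88, -1.96 and -1.97 at 20, 40 and 80 µg. At 80 µg 24 of 30 gap genes had a negative ratio, or 80.0% (62.7 to 90.5%), against 1200 of 2314 other named genes, or 51.9%. The negative share was 52.4% of gap genes against 46.4% of the others at 20 µg, and 54.9% against 47.6% at 40 µg. The negative share of all spots on an array is not given here. Of the 1337 named genes and spots without a single gene name that had a value on 2 arrays, 791 had a negative mean over arrays. Of the 60 gap genes among them, 32 did.

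The SD of the ratios was higher for gap genes than for other genes on each array, with 95% intervals that overlapped at 40 and 80 µg, and the robust measure gave no common order. The SD over genes was 0.410 for gap genes against 0.290 for other genes with 2 spots at 20 µg, 0.308 against 0.251 at 40 µg and 0.312 against 0.256 at 80 µg. By the scaled median absolute deviation they were 0.222 against 0.200, 0.213 against 0.180 and 0.141 against 0.163, so that the order was the opposite at 80 µg. At 20 µg gap genes with a single spot left had an SD of 0.573 (16 genes) and those with both spots 0.262 (26 genes), against 0.365 and 0.284 in other genes. The 16 include p23, the lowest ratio of all gap genes at -1.68, and the SD without p23 was not computed. At 40 and 80 µg the gap genes with both spots had an SD of 0.327 and 0.343, against 0.245 and 0.240 in other genes, while those with 1 spot had 0.187 (8 genes) and 0.141 (6 genes), against 0.405 and 0.397. Both spots of a gap gene differed by an SD per spot of 0.343, 0.300 and 0.253 at 20, 40 and 80 µg, against 0.287, 0.258 and 0.235 in other genes.

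A departure of more than 1.5-fold, a log2 ratio beyond 0.58 on either side, was found in 5 of 42 gap genes at 20 µg, or 11.9% (5.19 to 25%), where 6.86% of all features on that array lay as far out. At 40 µg it was 3 of 51, or 5.88%, beside 5.42% of all features, and at 80 µg 2 of 30, or 6.67%, beside 6.5%. Among the other named genes the shares were 4.54%, 3.67% and 3.85%. The shares of gap genes at 40 and 80 µg were thus near those of the array as a whole, and at 20 µg the interval included it. Other genes with 2 spots, the more alike group, had 4.94%, 3.70% and 3.95% at 20, 40 and 80 µg. Their intervals overlapped those of the gap genes, at 20 µg with 4.07 to 5.97% against 5.19 to 25%. A feature here is a named gene or a spot without a single gene name.

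The gene p23 (41173), which encodes a co-chaperone of Hsp90, had the lowest ratio of all gap genes. It read -1.68 at 20 µg, from 1 spot, and -0.88 and -0.89 on its 2 spots at 40 µg, a mean of -0.89 there, and had no value at 80 µg. Both arrays with a value lay on the same side, and the duplicate spots at 40 µg lay close together. Its mean was -1.29 ± 0.24 (SE, 2 arrays), with an unadjusted p of 0.00668 and an adjusted p of 0.763 from limma.

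CG4991 (32695), whose function is left unnamed here, was also negative on both arrays with a value, at -0.61 at 20 µg and -1.17 at 40 µg. Its spots disagreed: they read -0.11 and -1.11 at 20 µg and -0.40 and -1.93 at 40 µg, the second spot lower each time. The mean was -0.89 ± 0.19 (SE, 2 arrays; unadjusted p = 0.0103, adjusted p = 0.763 from limma). Both p23 and CG4991 had their gap at 80 µg and their probes in row 8 of a segment.

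The gene dpr18 (32572), of the Dpr family of neuronal cell-surface proteins with immunoglobulin domains, had its gap at 20 µg. It read -0.37 and -0.33 on its spots at 40 µg and -1.19 and -1.16 at 80 µg, so that the spots lay close together on each array while the arrays lay apart. The mean was -0.76 ± 0.24 (SE, 2 arrays; unadjusted p = 0.0386, adjusted p = 0.763 from limma). The gene vanin-like (31551), a relative of the vertebrate pantetheinases, had the same pattern between arrays, with a mean over spots of -0.13 at 40 µg and -1.11 at 80 µg, but its spots at 80 µg read -0.65 and -1.56. A further pair of negative genes, CG13630 and CG3014, had their gap at 40 µg, and their size came from 20 µg: CG13630 read -1.0 there from 1 spot and -0.19 at 80 µg, and CG3014 read -1.50 and 0.02 on its spots at 20 µg and -0.10 at 80 µg.

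**Figure D4:**
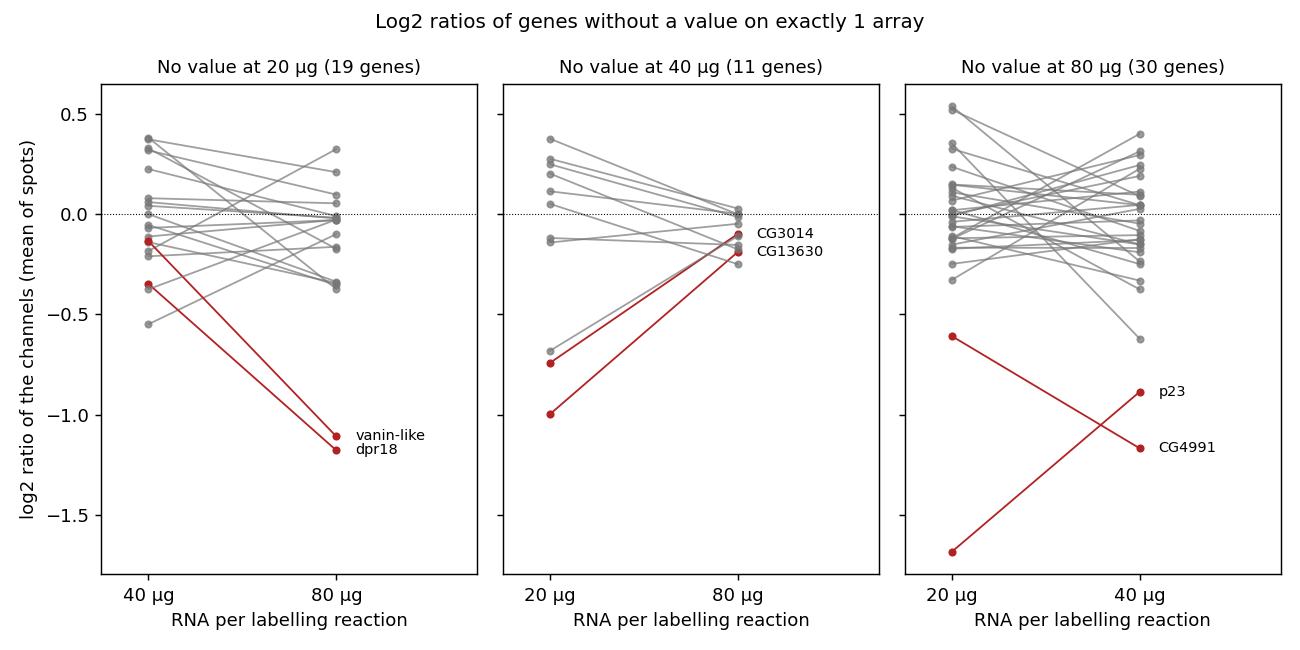
Log2 ratio (mean over spots) of the 60 genes without a value on exactly 1 array, on the 2 arrays where each had one; panels show the 19 genes without a value at 20 µg, the 11 at 40 µg and the 30 at 80 µg, and a line joins the values of a gene. Genes with a value beyond 0.7 in size are red and named, and all of those lie below 0, with p23 lowest at -1.68. No share of all features by side is given beside them.

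No gap gene lay beyond 1.5-fold on the positive side on any of the 3 arrays. The shares of all features beyond 1.5-fold given above count both sides together, so nothing is read from the side. The largest positive means belonged to alph, a protein phosphatase of the PP2C family, with 0.52 at 20 µg and 0.09 at 40 µg from 1 spot each, and to tfc, with 0.37 at 40 µg and 0.21 at 80 µg. Next came CG1722 (0.32 at 40 µg and 0.10 at 80 µg), CG7518 (0.38 at 20 µg and -0.00042 at 80 µg) and CG42853 (0.33 at 20 µg and 0.05 at 40 µg). The lowest unadjusted p of limma among these 5 was 0.0838, for tfc.

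Some gap genes agreed closely between their arrays and others did not. The closest were CG33191, at -0.17 at both 20 and 40 µg, cher, the filamin that crosslinks actin, at -0.12 and -0.10 on the same arrays, CG13995, at 0.08 at 40 µg and 0.05 at 80 µg, Obp99b, at -0.06 at 20 µg and -0.03 at 40 µg, and Drep2, at -0.12 at 20 µg and -0.15 at 80 µg. The spots of Obp99b nevertheless disagreed on each array, at -0.37 and 0.25 at 20 µg and -0.25 and 0.19 at 40 µg. The farthest apart, beside vanin-like, dpr18, CG13630 and p23, was CG31415, at 0.36 at 20 µg from 1 spot and -0.62 at 40 µg. The spots of CG5327 also lay far apart, at 0.66 and 0.11 at 40 µg and -0.02 and -0.73 at 80 µg. The median distance between arrays was 0.225 for the 30 gap genes with values at 20 and 40 µg, against 0.179 for other genes with 2 spots. For the 11 with 20 and 80 µg it was 0.301 against 0.173, and for the 19 with 40 and 80 µg 0.235 against 0.147. The sign was the same on both arrays for 16 of 30, 7 of 11 and 12 of 19 gap genes, and for 53.0%, 53.9% and 57.2% of the other genes.

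A role could be given from general knowledge for 31 of the 63 gap genes, grouped after their values were seen. Roles were given to gap genes alone, so no share of all named genes stands beside the size of a group or its split by array, and nothing is read from either. A group of 8 genes serves neurons and signalling, with 6 gaps at 80 µg, 1 at 40 µg and 1 at 20 µg. FMRFa, the precursor of the FMRFamide neuropeptides, read -0.17 at 20 µg and -0.13 at 40 µg. Ca-beta, the auxiliary subunit of voltage-gated calcium channels, read 0.11 and -0.05 on the same arrays, and cDIP, a binding partner of Dpr proteins, -0.12 and 0.40. The guanine nucleotide exchange factor gene PsGEF (-0.01 and 0.25) and twit, a target of the BMP receptor Wit (-0.04 and 0.05), completed the group beside alph, dpr18 and Drep2, a relative of the DNA fragmentation factors of apoptosis. Only dpr18 in this group lay beyond 1.5-fold on an array.

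Secreted and matrix proteins formed a group of 7, with 3 gaps at 20 µg, 1 at 40 µg and 3 at 80 µg. The gene vkg (33726), which encodes a chain of collagen IV and is made by haemocytes and fat body, had its gap at 80 µg and read 0.24 at 20 µg and -0.08 at 40 µg. ImpE3, an ecdysone-inducible gene, read -0.25 and -0.12 on those arrays. TotF, of the Turandot family of stress-induced humoral proteins, read 0.20 at 20 µg and -0.18 at 80 µg, and the serine protease family gene yip7 -0.37 at 40 µg and -0.03 at 80 µg. The secreted Wingless-binding protein gene peg read 0.23 and -0.01 at 40 and 80 µg. Apart from vanin-like, all 7 lay within 1.5-fold.

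Genes of general cell functions were gap genes too. Metabolism and mitochondria gave 5: Opa1, which drives fusion of the inner mitochondrial membrane, read -0.05 at 40 µg and -0.35 at 80 µg, the lysosomal mannosidase gene LManII 0.04 and -0.02, Dpm1, a subunit of dolichol-phosphate mannose synthase, -0.00096 at 20 µg and 0.19 at 40 µg, SdhCL, a relative of a subunit of succinate dehydrogenase, -0.01 and -0.15, and the UDP-glycosyltransferase gene Ugt301D1 0.05 at 20 µg and -0.25 at 80 µg. Cytoskeleton and membrane traffic gave 4, of which 3 had their gap at 20 µg. Sec16, which organises the sites where vesicles leave the endoplasmic reticulum, read -0.18 at 40 µg and 0.33 at 80 µg, the synaptotagmin-like gene btsz 0.06 and -0.02, and TTLL3B, a relative of tubulin glycylases, -0.07 and -0.03. The fourth was cher.

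Translation and protein folding gave 3 genes, with eIF3m and p23 described above and Dph1, which starts the synthesis of diphthamide on elongation factor 2, at -0.21 at 40 µg and -0.16 at 80 µg. Gene regulation also gave 3. Clk, the transcription factor that drives the circadian clock, read 0.00087 at 40 µg and -0.34 at 80 µg, erm, a zinc-finger factor of neural progenitors, 0.15 at 20 µg and 0.10 at 40 µg, and Atac1, of the ATAC histone acetyltransferase complex, -0.33 and 0.23. The meiotic gene c(3)G, whose product joins paired chromosomes in the synaptonemal complex, read -0.55 at 40 µg and -0.10 at 80 µg. Of the 7 genes of these groups, Clk alone had its probe in the last 7 rows.

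For the remaining 32 genes no role is given, and 28 of them carry only a CG number, the systematic name of a gene without a symbol of its own. They had 8 gaps at 20 µg, 9 at 40 µg and 17 at 80 µg, and 24 of the 32 lay in the last 7 rows, against 12 of the 31 genes with a role. Of 913 CG-numbered genes on the table, 28 were gap genes, or 3.07%, beside 2.65% of all named genes. Among those with 2 spots the shares were 3.57% and 3.02%. The 26 CG-numbered genes with 2 arrays had 13 positive and 13 negative means, from -0.89 to 0.21.

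Lists of genes known from particular tissues or functions held gap genes at about the share of all named genes. Of 27 lists, 8 had at least 1, 18 had named genes but no gap gene and 1, the histones, had no named gene. Over all lists but that of CG numbers, 6 of 233 genes were gap genes, or 2.58%, beside 2.65% of all named genes, and among genes with 2 spots the shares were 2.99% and 3.02%. The chemosensory list had 1 of 22, the odorant-binding protein gene Obp99b, which the fat body list of 9 genes also held. Single gap genes were also found among 16 detoxification genes (Ugt301D1), 6 ecdysone response genes (ImpE3), 11 translation factors (eIF3m) and 10 genes of the respiratory chain (SdhCL).

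At 2.65%, a list of fewer than 20 genes would hold less than 1 gap gene on average, so a count of 0 in such a list is no result about it. The 19 neuronal, 11 testis, 10 muscle, 4 photoreceptor, 5 accessory gland and 5 ovary and germline genes had 0 gap genes, and so had the 16 proteasome, 15 chaperone, 14 splicing and 6 cytosolic ribosomal protein genes. These lists are short and do not hold every gene of their kind: FMRFa, Ca-beta and dpr18 lie outside the neuronal list, and p23 outside the chaperone list. Of the haemocyte list 6 genes were on the table, and vkg alone was a gap gene. The other 5, NimB1, NimC1, Ppn, Pxn and SPARC, had ratios between -0.25 and 0.31 on the 3 arrays. The ratio does not show the level of a gene, so the labelled cell line was not checked by its markers, and the haemocyte markers Hml, He, srp and eater were not among the named genes used here.

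No gap gene passed the test for a departure from equal signal. The limma fit allowed an empty array and covered 13182 features with at least 2 arrays, including 60 gap genes, while CG5326, CG7173 and eIF3m could not be tested. At an adjusted p under 0.05 it made 0 calls among the gap genes, where 0% of all features were called. At an unadjusted p under 0.05 it gave 3 of 60 gap genes, or 5.00%, where 5.54% of all features passed (730 of 13182), and the 3 were p23, CG4991 and dpr18. Of the 1337 features with a value on 2 arrays, the number that each of the 60 had, 97 passed, or 7.26%. Of the 60 means 28 were positive and 32 negative, with a median of -0.048, against -0.0030 over all features and -0.059 over the 1337 features that also had 2 arrays. With 2 arrays a gene has 1 residual degree of freedom of its own, and the moderated SE of the gap genes ran from 0.118 to 0.278.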

How the data were processed

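Total RNA of untreated Kc167 cells was hybridised in both channels of 3 arrays, 1 array per RNA amount, so no replicate spread within an amount could be measured. Per the labels, the authors scanned the slides with a ScanArray system, quantified spots with QuantArray without background subtraction and derived ratios from normalized data, and these deposited values were read as log2 ratios. The normalization, the log base, the dye on top of the ratio and why cells are empty were not given in the sources used here. No counts exist, so depth does not apply.

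Spots were named through the platform's annotation table, which can be old. Of 16896 spots, 5666 had 1 gene symbol, 152 several and 11078 none. All 2377 genes were found by identifier in the RefSeq gene table of Release 6. A gene's value is the mean over its spots with a value. The mean over arrays was tested against 0 with lmFit and eBayes of limma 3.58.1 in R 4.3.3. It was run over all features with at least 2 arrays and with Benjamini-Hochberg adjustment. Arrays of different RNA amounts stood in for replicates. The p-values rest on the spread between these arrays, drawn by eBayes towards a spread pooled over all features. They do not measure a gene's own spread alone: CG33191, with arrays 0.00175 apart, had an SE of 0.118. The fit was also run on simulated data in which the values of each array were shuffled on their own. The outcome is not reported here, and nothing is read from it. Shares have Wilson 95% intervals from scipy 1.17.1.

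Earlier results of these data were known when the gap genes, the lists and the genes to name were chosen. The text names genes without a value on 2 or more arrays, genes with over 2 spots, genes in a list, the 5 highest and 5 lowest means, the 5 closest and 5 farthest pairs of arrays and the 3 largest values of each array. Other gap genes are named for their role. Alternatives changed the naming of spots, the first 2112 spots, the arrays, the centring, the unit, the features in the fit and its robust option. No probe sequence is printed, and signal intensities were not used here.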

Additional observations from a re-analysis of the deposited data

Results flagged for a closer look

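Empty spot pairs were also found outside the named genes. Of 5539 spot pairs for which the annotation lists no gene, 332 were wholly empty on at least 1 array, or 5.99% (Wilson 95% interval 5.40 to 6.65%), against 90 of 2833 pairs with 1 gene symbol, or 3.18% (2.59 to 3.89%). These pairs drew attention because they lie outside the measurement described above. Which sequences they hold was not analysed here.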

How the results depend on the processing

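The number of gap genes was 63, and 68 with spots of several symbols counted too, 55 without the first 2112 spots, and 33 to 52 when 1 array was left out. The low end was without the 80 µg array, which by construction removes the gaps found there alone. Counted in spot pairs, gap genes had 1 per gene. The share with 1 spot empty at 80 µg was 7.69% in the first 15 rows (chosen after seeing the data), against 20.0% over all rows. With the median absolute deviation, scaled, in place of the SD the spread became 0.222, 0.213 and 0.141 at 20, 40 and 80 µg, and the SD at 20 µg was 0.262 with both spots present. Among the alternatives run, centring alone could move the mean of a gene: the mean of twit was -0.0059 with arrays centred on their median and 0.0045 without, and the other 59 means kept their sign. The limma fit made 0 calls among gap genes under each alternative run, which with 2 arrays per gene says nothing about stability. No paired analysis was possible because each amount of RNA had only 1 array.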

Other observations

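Of the named genes on arm 2L 19 of 496 were gap genes, or 3.83% (Wilson 95% interval 2.47 to 5.91%), on 3R 21 of 572, or 3.67% (2.41 to 5.55%), and on X 8 of 383, or 2.09% (1.06 to 4.07%). On 3L it was 8 of 452, or 1.77% (0.900 to 3.45%), and on 2R 7 of 453, or 1.55% (0.750 to 3.15%), with 0 of 20 on chromosome 4. The intervals of the 5 large arms overlap each other, and each includes the 2.65% of all named genes, so no difference between arms is shown.

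With the 496 genes of 2L ordered along the arm and divided into 4 runs of 124, the last run held 8 gap genes, or 6.45%, against 4, 5 and 2 in the others. They were Dpm1, CG10628, TotF, CG10680, CG10651, twit, CG14401 and CG10834, of which 7 had no value at 80 µg and TotF none at 40 µg. Of the 124 genes in that run 97 lay in the last 7 rows of the inferred layout, or 78.2%, and so did 7 of the 8 gap genes. The third run, with the fewest gap genes, also had 85 of its 124 genes there, or 68.5%. The first and second runs had 40.3% and 38.7% there. The part of the rows in the count of gap genes by run was not tested. No such division of another arm is given here, and the counts by run have no intervals. No difference between runs is therefore shown.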
